A study of Homo sapiens with 6 samples.

Results

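The genes described here encode the cytochrome P450 (CYP), glutathione S-transferase (GST), UDP-glycosyltransferase (UGT) and aldehyde dehydrogenase (ALDH) enzymes and the first family of aldo-keto reductases (AKR1). The group was chosen with earlier results of these data known. Within it, genes were taken by symbol (CYP, GST, UGT, ALDH or AKR1 followed by a digit or letter, leaving out CYP51A1), whatever their values, and each gene's values are those of its probe set with exactly 1 gene symbol and the highest mean over the 6 arrays. This gave 107 of the 18417 genes measured: 52 CYP, 18 GST, 9 UGT, 19 ALDH and 9 AKR1 genes. Of the 107, 99 are protein coding and 8 are pseudogenes or an antisense RNA. AKR1B1, the aldose reductase, had no probe set with a single symbol and was not analysed here.

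Expression was compared between 2 lines of HCT116 (a widely used line from a human colorectal carcinoma) on whole-transcript arrays, to ask how a gene mutation affects expression. The 3 parental arrays carry the genotype label parental, and the 3 mutant arrays come from a derived line labelled as a mutant with altered DNA methylation. The labels give no treatment, name no mutated gene, and do not say whether the mutant is 1 clone or whether arrays came from separate cultures. What the mutation did and how else the lines differ cannot be told apart, and the p-values reflect the spread among these arrays alone, which may be technical.

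P450 enzymes insert oxygen into steroids, fatty acids, vitamins and drugs, using electrons passed on from a reductase or cytochrome b5. GSTs and UGTs then attach glutathione or a sugar to reactive or fat-soluble compounds, and ALDH and AKR1 enzymes oxidise or reduce aldehydes and ketones. Many of these enzymes are best known from liver and intestine, and several supply or destroy signals such as retinoic acid and active vitamin D.

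All values are log2 intensities after robust multi-array average (RMA) processing, and a change is the mutant mean minus the parental mean with its moderated standard error (SE). A gene was called when its adjusted p was under 0.05 (limma, Benjamini-Hochberg over all 33297 probe sets). Array medians ranged from 6.88 to 6.93, and arrays correlated across probe sets at 0.995 to 0.996 within a group and 0.988 to 0.989 between groups. The 12 epithelial markers had means of 4.24 to 13.06 over all arrays, with 7 of them at 7 or above (EPCAM, KRT8, KRT18, KRT19, CDH1, CDX1 and CDX2) and LGALS4, KRT20, GPA33, VIL1 and CDH17 below. Array means over the 12 were 8.74 to 8.77 in the parental and 8.41 to 8.54 in the mutant arrays, and 4 of the 12 (KRT8, KRT18, KRT19 and CDH1) were lower in the mutant. Hepatocyte markers, which many of these enzymes accompany in liver, averaged 5.25 to 5.32 and 5.14 to 5.21 over 14 genes, and 1 gene, SERPINA1, was lower. Their means over all arrays ran from 3.57 to 8.66, with ALB at 3.91. A mean of 7 was reached by 2 of them, CPS1 (8.66) and APOA1 (7.3). Over 10 fibroblast markers the arrays averaged 5.72 to 5.75 and 5.78 to 5.86, with PDGFRB and ACTA2 higher. Over 8 leukocyte markers they averaged 5.80 to 5.85 and 5.84 to 5.87. Of these 8, limma called 0 (1 at an unadjusted p under 0.05, 0 in an ordinary linear model). The leukocyte marker means ran from 3.72 (PTPRC) to 9.26 (CD68). In such bulk samples fewer cells of a type and less RNA per cell cannot be told apart, and the part of these markers in the results below was not tested.

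The 5 stretches below are the 250 bases before the annotated start of the members that changed at least 2-fold and have an entry in the promoter table, with GSTA4 beside GSTA2 because both genes of the alpha GST cluster rose. They are RefSeq sequences of GRCh38.p14, written 5′ to 3′ on the gene's own strand, and capitals mark CpG, the dinucleotide at which human DNA is mainly methylated.
AKR1E2 (chr10:4825927-4826176, plus strand): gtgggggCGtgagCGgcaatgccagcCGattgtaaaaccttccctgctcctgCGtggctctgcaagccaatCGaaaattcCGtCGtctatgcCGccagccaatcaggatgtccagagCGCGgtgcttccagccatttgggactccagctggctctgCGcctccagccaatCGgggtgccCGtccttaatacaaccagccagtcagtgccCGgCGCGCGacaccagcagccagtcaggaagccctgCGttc
CYP20A1 (chr2:203238768-203239017, plus strand): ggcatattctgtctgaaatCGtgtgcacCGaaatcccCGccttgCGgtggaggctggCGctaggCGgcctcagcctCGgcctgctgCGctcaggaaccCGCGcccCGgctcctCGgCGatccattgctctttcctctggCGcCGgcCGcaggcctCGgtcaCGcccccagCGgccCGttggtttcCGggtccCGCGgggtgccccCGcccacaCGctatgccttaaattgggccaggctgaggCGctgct
CYP4V2 (chr4:186191317-186191566, plus strand): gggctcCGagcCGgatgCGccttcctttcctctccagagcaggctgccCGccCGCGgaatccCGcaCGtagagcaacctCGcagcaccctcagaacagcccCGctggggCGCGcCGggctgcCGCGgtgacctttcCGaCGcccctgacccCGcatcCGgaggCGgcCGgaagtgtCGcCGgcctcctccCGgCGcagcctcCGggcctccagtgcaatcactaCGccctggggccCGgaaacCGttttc
GSTA2 (chr6:52763476-52763725, minus strand): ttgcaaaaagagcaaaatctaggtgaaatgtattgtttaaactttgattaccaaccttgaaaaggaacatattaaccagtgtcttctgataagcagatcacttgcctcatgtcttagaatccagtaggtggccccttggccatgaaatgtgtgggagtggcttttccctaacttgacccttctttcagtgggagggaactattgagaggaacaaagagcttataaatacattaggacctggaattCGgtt
GSTA4 (chr6:52995285-52995534, minus strand): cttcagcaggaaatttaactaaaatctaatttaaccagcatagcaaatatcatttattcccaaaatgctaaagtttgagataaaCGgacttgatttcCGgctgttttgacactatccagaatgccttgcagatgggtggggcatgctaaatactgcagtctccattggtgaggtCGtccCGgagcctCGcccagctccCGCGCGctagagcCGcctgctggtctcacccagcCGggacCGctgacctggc

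The 5 windows differ widely in CpG content. The GSTA2 window holds 1 CpG, a count that 15.4% of all 27305 windows of this length do not exceed, and the GSTA4 window holds 11, the median of all windows. The AKR1E2, CYP20A1 and CYP4V2 windows hold 18, 26 and 29 CpG, counts that 65.7%, 82.7% and 87.8% of windows do not exceed. The core of the xenobiotic response element bound by the aryl hydrocarbon receptor, GCGTG searched on both strands, occurs at 2 places in the AKR1E2 window and 2 in the CYP20A1 window, and in 31.9% of all windows. The core of the antioxidant response element bound by NRF2, TGACNNNGC searched on both strands, occurs once in the windows of CYP4V2 and GSTA4, and in 11.0% of all windows. The table holds windows for 76 of the 107 enzyme genes (71.0%), so a comparison of CpG content over the whole group is void. Methylation of these windows was not analysed here, and a match to a motif is a description of the letters, not a binding site.

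Of the 107 enzyme genes, 19 were higher and 6 lower in the mutant, and 82 were not called. This is 17.8% higher and 5.61% lower, against 14.6% higher and 11.3% lower among all 18417 genes. At least 1.5-fold changes were called higher for 8 and lower for 3 of the 107, against 3.34% and 3.88% of all genes. The parental and mutant arrays did not overlap for 45 enzyme genes (42.1%), against 45.8% of all genes. For a called gene such separation is close to given, so where it is described below it adds no support to the call. The median change was -0.013 over the enzyme genes and 0.003 over all genes, and single changes ran from -1.11 to 1.15.

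Most calls fell on the brighter enzyme genes, as they did over all genes, where 4087 of 4773 calls had a mean log2 of at least 7. A mean log2 of at least 7 was reached by 37 of the 107, and 13 of these were higher and 4 lower (35.1% and 10.8%), against 20.9% and 15.6% of all genes this bright. The other 70 lay at 2.96 to 6.97, and 6 of them were higher and 2 lower (8.57% and 2.86%), against 4.83% and 4.69% of all genes under 7. RMA compresses changes of dim probe sets, so a small change at such a level is not evidence of stable expression. The 8 pseudogene and antisense RNA genes among them, all under 7, had 0 limma calls at changes of -0.18 to 0.54, with 1 at an unadjusted p under 0.05 and 0 in an ordinary linear model.

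**Figure D1:**
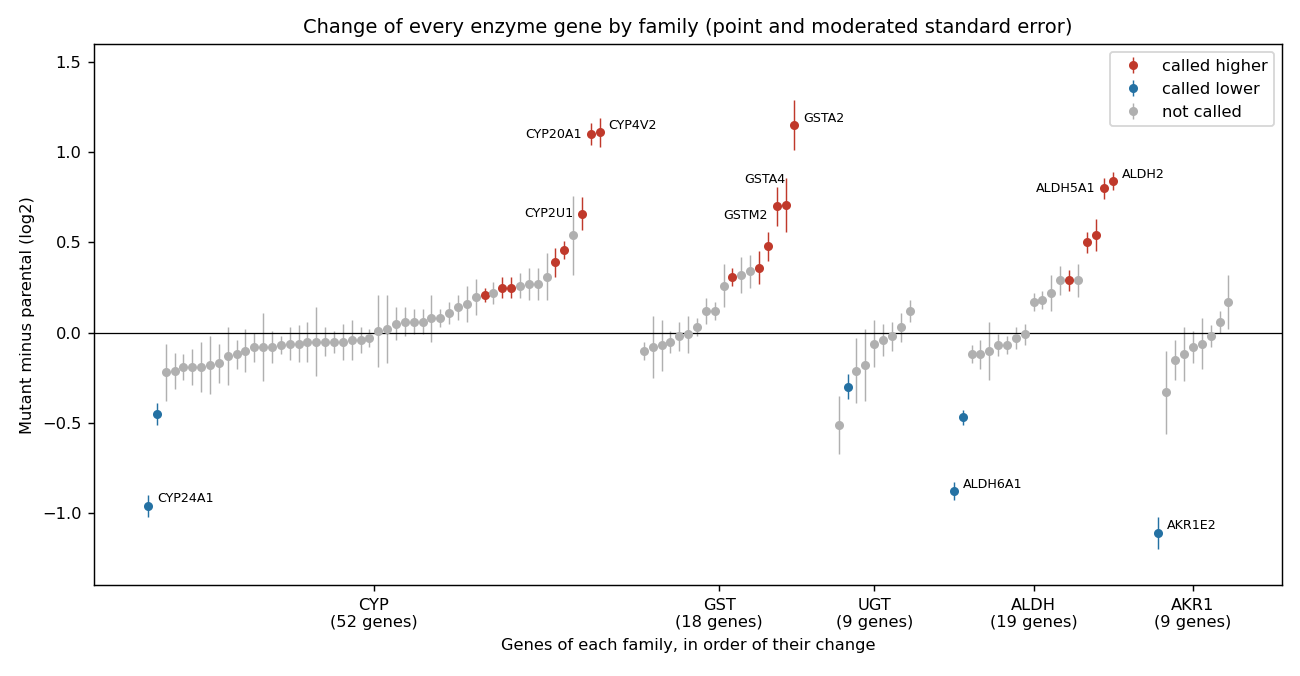
Change of each of the 107 enzyme genes, mutant minus parental on the log2 scale (vertical axis), sorted by change within its family (horizontal axis); points are fitted changes, bars the moderated SE, red points called higher, blue points called lower and grey points not called. The GST family has 6 red and 0 blue points, and the extremes are GSTA2 at 1.15 and AKR1E2 at -1.11.

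By family, 6 of 18 GST genes were higher (33.3%) and 0 lower, against 14.6% and 11.3% of all genes. The median change of the GST genes was 0.19. The same all-gene shares, or 20.9% and 15.6% at a mean of at least 7, stand beside each smaller count of calls below. Of 19 ALDH genes 5 were higher and 2 lower (26.3% and 10.5%), with a median of 0.166. All 7 of these were among the 13 ALDH genes with a mean of at least 7. Of 52 CYP genes 8 were higher and 2 lower, with a median of -0.014. Their share called higher, 15.4%, was close to that of all genes, and 3.85% were lower. The 9 UGT and the 9 AKR1 genes had 0 called higher and 1 called lower each, with medians of -0.059 and -0.085, and only 1 UGT gene and 0 AKR1 genes reached a mean of 7. In limma at an unadjusted p under 0.05, 0 GST genes were lower and 0 UGT or AKR1 genes higher, and an ordinary linear model (adjusted in the same way) also gave 0 for each. Whether the families differ from one another was not tested.

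**Figure D2:**
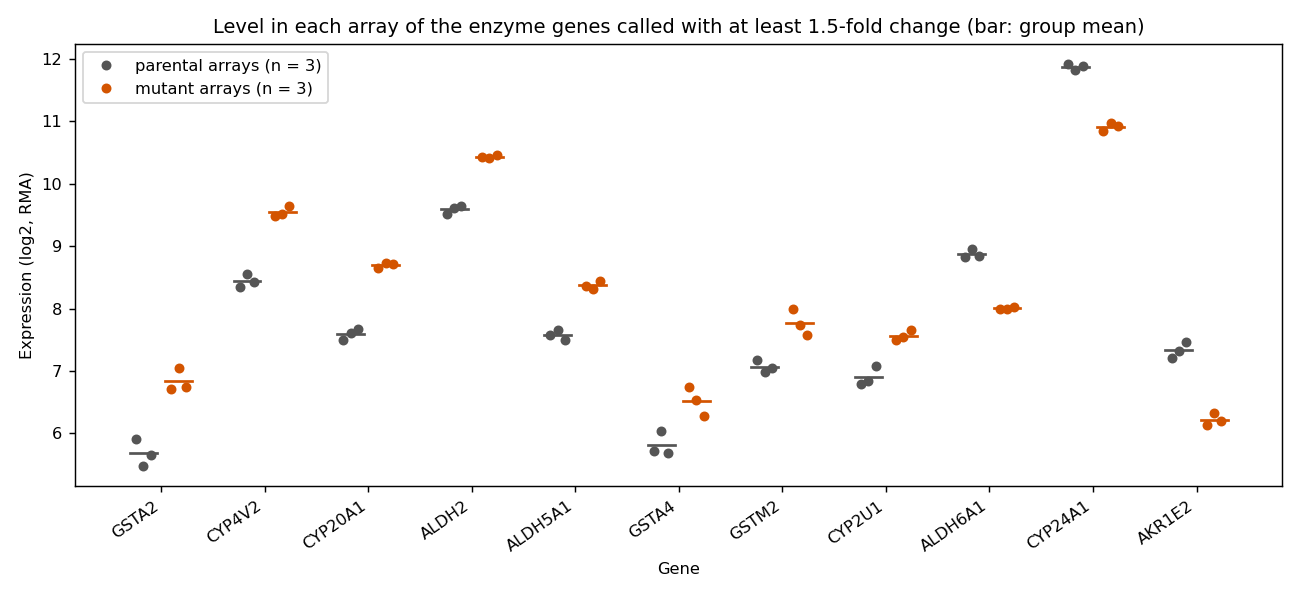
Expression of the 11 enzyme genes called with a change of at least 1.5-fold, as log2 RMA values (vertical axis) for each gene (horizontal axis); each point is 1 array, colours separate the 3 parental and 3 mutant arrays, and short lines are group means. In all 11 genes the 3 mutant points lie wholly above or wholly below the 3 parental points. The genes were chosen for their calls, so this separation is close to given and adds no support. Levels of different genes come from different probes and are not comparable.

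Among the fatty acid P450s, 5 of 14 were higher (35.7%) and 0 lower by limma, against 14.6% and 11.3% of all genes. At an unadjusted p under 0.05 and in an ordinary linear model 0 were lower, and the median change was 0.098. CYP4V2, which hydroxylates medium-chain fatty acids and is mutated in Bietti crystalline dystrophy of the retina, read 8.34, 8.56 and 8.42 in the parental arrays and 9.49, 9.52 and 9.64 in the mutant arrays. All mutant arrays lay above all parental arrays, and the means were 8.44 ± 0.11 and 9.55 ± 0.08 (SD, n = 3 each). The gene rose by 1.11 (SE 0.08, 2.16-fold, limma adjusted p = 0.000379). CYP2U1, a hydroxylase of long-chain fatty acids, read 6.79, 6.84 and 7.08 in the parental and 7.50, 7.54 and 7.66 in the mutant arrays. The lowest mutant array lay above the highest parental one, and the rise was 0.66 (SE 0.09, 1.58-fold, limma adjusted p = 0.00472).

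The other 3 of these calls belong to the CYP4F cluster of chromosome 19, whose enzymes hydroxylate leukotrienes and fatty acids. CYP4F12 rose by 0.46 (SE 0.05, limma adjusted p = 0.00217), from 5.22 ± 0.05 to 5.68 ± 0.04. CYP4F11 rose by 0.25 (adjusted p = 0.0322) and CYP4F3 by 0.21 (adjusted p = 0.0223, limma for both). The CYP4F11 call was lost without mutant replicate 1 (adjusted p = 0.0821), 2 (0.0962) or 3 (0.0932) or parental replicate 1 (0.0845) or 2 (0.107), and the CYP4F3 call without any one array (0.0544 to 0.0912), all by limma. In chromosomal order CYP4F22, CYP4F8, CYP4F3, CYP4F12, CYP4F2 and CYP4F11 had differences of -0.07, 0.16, 0.21, 0.46, 0.14 and 0.25, so 3 of the 6 were called. Whether the probe sets of these related genes share sequence was not tested. The 6 genes of the CYP4 cluster of chromosome 1, with CYP4A, CYP4B, CYP4X and CYP4Z members, had 0 limma calls at changes of -0.18 to 0.01, and 0 at an unadjusted p under 0.05 or in an ordinary linear model.

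CYP20A1, an orphan P450 whose substrate is not known, read 7.50, 7.61 and 7.68 in the parental arrays and 8.65, 8.73 and 8.72 in the mutant arrays. The groups were separated by far more than their spread (7.60 ± 0.09 and 8.70 ± 0.04), and the gene rose by 1.10 (SE 0.06, 2.15-fold, limma adjusted p = 0.000216).

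Of the 3 vitamin D P450s, 2 were lower, against 15.6% of all genes with a mean of at least 7, a level that all 3 reach. CYP24A1, the hydroxylase that starts the breakdown of active vitamin D, read 11.92, 11.82 and 11.89 in the parental arrays and 10.85, 10.97 and 10.93 in the mutant arrays. Every mutant array lay below every parental one, and the gene fell by 0.96 (SE 0.06, 1.95-fold lower, limma adjusted p = 0.000215). CYP27B1, which makes the active hormone, read 8.17, 8.23 and 8.12 against 7.67, 7.81 and 7.70, again without overlap, and fell by 0.45 (SE 0.06, limma adjusted p = 0.00468). CYP2R1, the main liver-type hydroxylase of the first activation step, was named after its values were seen and had a difference of 0.22 (95% confidence interval 0.07 to 0.38, limma adjusted p = 0.055), which is not a call. The transcript of the vitamin D receptor VDR, which induces CYP24A1 when bound by the hormone, had means of 8.22 ± 0.06 and 8.41 ± 0.10 and was not called (change 0.19, limma adjusted p = 0.125); it was also named after its values were seen.

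The P450s of the CYP1, CYP2 and CYP3 families that act mainly on drugs and other foreign compounds had 2 of 13 called higher by limma. This is 15.4%, against 14.6% of all genes. Called lower were 0 (1 at an unadjusted p under 0.05), and the median change was -0.048. An ordinary linear model called 0 of the 13. Both calls were of targets of the aryl hydrocarbon receptor. The remaining CYP1 enzyme gene, CYP1A2, named after its values were seen, had a change in the other direction. It was -0.19 and not called (limma adjusted p = 0.134, unadjusted 0.0364). CYP1B1, which oxidises oestrogens and polycyclic hydrocarbons, read 6.45, 6.37 and 6.25 against 6.65, 6.72 and 6.86 and rose by 0.39 (SE 0.08, limma adjusted p = 0.021). CYP1A1, which oxidises polycyclic hydrocarbons, read 6.22, 6.04 and 6.10 against 6.38, 6.34 and 6.40 and rose by 0.25 (SE 0.06, limma adjusted p = 0.0346). Both were separated without overlap but at dim levels, and both calls were lost without single arrays. For CYP1B1 the limma adjusted p was 0.0646 without mutant replicate 2, 0.0576 without mutant replicate 3, 0.0658 without parental replicate 2 and 0.0604 without parental replicate 3. For CYP1A1 it was 0.098, 0.0835 and 0.0998 without mutant replicates 1, 2 and 3, and 0.11 and 0.0985 without parental replicates 2 and 3.

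CYP2S1, an extrahepatic P450 of epithelia and the second brightest CYP probe set, had means of 10.36 ± 0.04 and 10.47 ± 0.08 and was not called (change 0.11, 95% confidence interval -0.04 to 0.25). CYP2W1, a P450 known for its expression in colorectal tumours, had means of 7.45 ± 0.14 and 7.37 ± 0.07 and was not called either (change -0.08, interval -0.29 to 0.13). CYP3A5, a drug-metabolising enzyme of liver and intestine, had a change of -0.22 with a wide interval of -0.61 to 0.18, at means near 5. All 3 measured CYP3A genes lay at means of 3.66 to 4.96 with 0 limma calls. The 5 steroid hormone P450s and the 6 bile acid and oxysterol P450s had 0 limma calls, with changes of -0.21 to 0.06 and -0.19 to 0.20. At an unadjusted p under 0.05, and in an ordinary linear model, these 3 groups again had 0.

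The 4 P450s that act on retinoids had 0 limma calls, 3 at an unadjusted p under 0.05, 0 in an ordinary linear model and a median change of 0.266, and the arrays of 3 of them did not overlap, against 45.8% of all genes. CYP26A1, which clears retinoic acid and is induced by it, read 5.98, 5.90 and 6.12 in the parental and 6.20, 6.28 and 6.32 in the mutant arrays. All mutant values were above the parental ones, by 0.26 (95% confidence interval 0.08 to 0.45), with a limma adjusted p of 0.0579. CYP26B1 and CYP27C1, named after their values were seen, had changes of 0.27 each (limma adjusted p = 0.0851 and 0.0966).

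All 6 calls in the GST family were increases. Of the alpha class, which conjugates lipid peroxidation products and reduces steroid and peroxide substrates, 3 of 5 genes rose and the median change was 0.361. All 5 had a mean under 7, a level at which 4.83% of all genes were higher. An ordinary linear model called 1 of the 5. GSTA2, a peroxide-reducing alpha GST typical of liver, read 5.91, 5.48 and 5.65 in the parental arrays and 6.71, 7.04 and 6.75 in the mutant arrays. The lowest mutant array lay well above the highest parental one, with means of 5.68 ± 0.22 and 6.83 ± 0.18, and the rise of 1.15 (SE 0.14, 2.22-fold, limma adjusted p = 0.00274) was the largest of all 107 genes. GSTA4, which conjugates the lipid aldehyde hydroxynonenal, read 5.71, 6.03 and 5.69 against 6.74, 6.54 and 6.28. Its groups did not overlap either, and it rose by 0.71 (SE 0.15, 1.64-fold, limma adjusted p = 0.0203). The GSTA4 call was lost without parental replicate 1 (adjusted p = 0.0717) or 3 (0.0689) or mutant replicate 1 (0.0566) or 2 (0.0688), all by limma.

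GSTA5, a little studied alpha gene, rose by 0.36 (limma adjusted p = 0.0399) at levels near 3, where the signal is close to the dimmest on the arrays. That call was lost without mutant replicate 1 (limma adjusted p = 0.118) or 3 (0.115) or parental replicate 1 (0.105) or 2 (0.107). In the order in which the cluster lies on chromosome 6, GSTA2, GSTA1, GSTA5, GSTA3 and GSTA4 had differences of 1.15, 0.32, 0.36, -0.01 and 0.71. GSTA3, a steroid isomerase between GSTA5 and GSTA4 in the cluster, had means of 4.87 ± 0.07 and 4.86 ± 0.19. GSTA1, GSTA2, GSTA3 and GSTA5 are close copies of each other in coding sequence, GSTA4 less so, and whether their probe sets share sequence was not tested.

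Of the mu class, which conjugates epoxides and other electrophiles, 2 of 5 genes rose, against 14.6% of all genes, and the median change was 0.336. GSTM2, a cytosolic mu GST, read 7.17, 6.99 and 7.05 in the parental and 7.99, 7.74 and 7.57 in the mutant arrays. The groups were separated, though the mutant arrays spread more (7.07 ± 0.09 and 7.77 ± 0.21), and the rise was 0.70 (SE 0.11, 1.62-fold, limma adjusted p = 0.00882). GSTM4, another mu GST, read 10.15, 10.28 and 10.16 against 10.81, 10.60 and 10.63 and rose by 0.48 (SE 0.08, limma adjusted p = 0.00772). GSTM1, a gene often deleted in people, had a change of 0.34 (95% confidence interval 0.11 to 0.56) that was not called (limma adjusted p = 0.052). In chromosomal order GSTM4, GSTM2, GSTM1, GSTM5 and GSTM3 of the chromosome 1 cluster had differences of 0.48, 0.70, 0.34, 0.26 and -0.08. Several of these genes too are close copies of each other, and whether their probe sets share sequence was not tested.

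Outside these 2 classes 1 of 7 GSTs was called. GSTK1, the kappa GST of mitochondria and peroxisomes, read 10.01, 10.01 and 10.07 against 10.33, 10.31 and 10.38 and rose by 0.31 (SE 0.05, limma adjusted p = 0.00729). GSTP1, the pi GST that is abundant in many tumours and silenced by promoter methylation in prostate cancer, read 13.20, 13.27 and 13.24 against 13.36, 13.35 and 13.35. These groups did not overlap, yet the change of 0.12 (95% confidence interval 0.01 to 0.23) was not called (limma adjusted p = 0.146). GSTT1, a theta GST, had means of 6.20 ± 0.21 and 6.14 ± 0.19 and a change of -0.07 (interval -0.41 to 0.27).

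**Figure D3:**
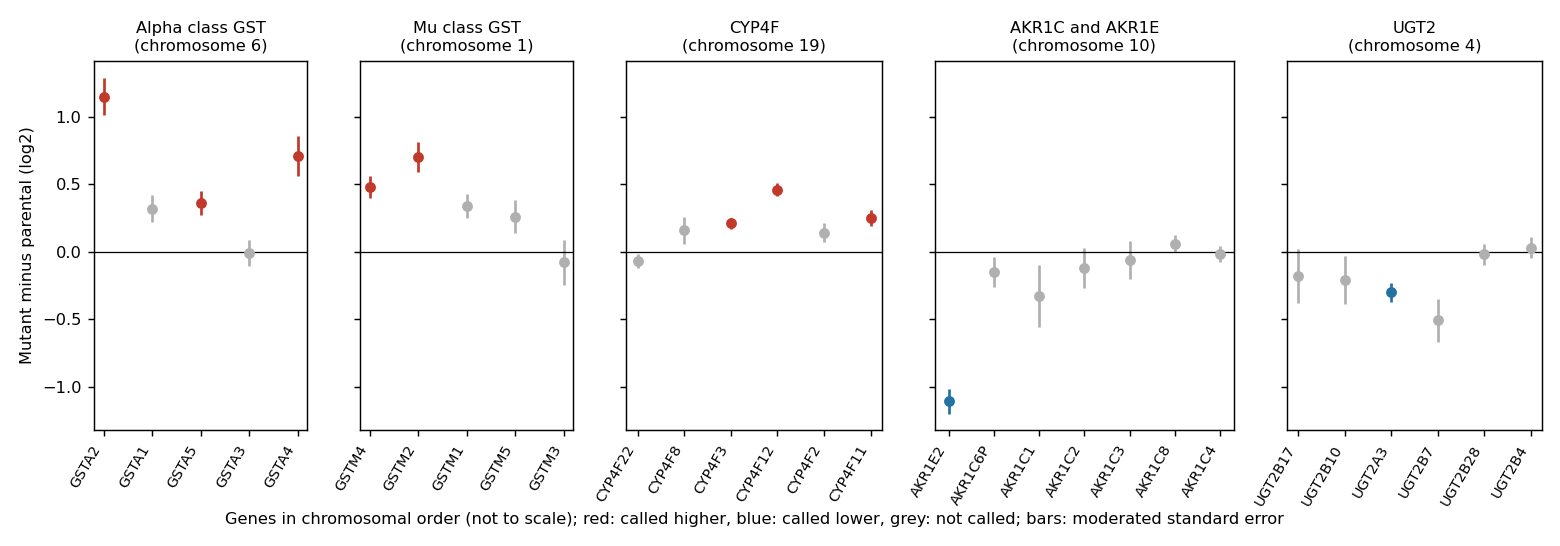
Change of the genes in 5 chromosomal clusters of these families, mutant minus parental on the log2 scale (vertical axes), in chromosomal order and not to scale (horizontal axes); bars are the moderated SE, red marks genes called higher, blue called lower and grey not called. GSTA2 at 1.15 and GSTA3 at -0.01 lie in one cluster, and in the AKR1 cluster AKR1E2 at -1.11 is the only called gene of 7.

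Of the 2 mitochondrial aldehyde dehydrogenases of acetaldehyde, 1 was higher. ALDH2, the mitochondrial enzyme that clears acetaldehyde after alcohol intake, read 9.52, 9.61 and 9.65 in the parental and 10.43, 10.41 and 10.47 in the mutant arrays. The groups were narrow and far apart (9.60 ± 0.06 and 10.44 ± 0.03), and the gene rose by 0.84 (SE 0.05, 1.79-fold, limma adjusted p = 0.000287). ALDH1B1, its mitochondrial relative, read 11.26, 11.27 and 11.34 against 11.43, 11.51 and 11.42, without overlap, but the change of 0.17 (95% confidence interval 0.04 to 0.29) was not called (limma adjusted p = 0.0832).

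The 7 ALDHs that break down or make amino acids and amines had 3 higher and 1 lower, and in all 7 the arrays of the 2 lines did not overlap, against 61.5% of all genes with a mean of at least 7, a level that 6 of the 7 reach. ALDH5A1, succinic semialdehyde dehydrogenase of the GABA pathway, read 7.58, 7.65 and 7.50 against 8.37, 8.32 and 8.44. Each mutant array exceeded each parental array, and the rise was 0.80 (SE 0.06, 1.74-fold, limma adjusted p = 0.000555). ALDH7A1, the antiquitin of lysine breakdown, rose by 0.54 (SE 0.09, limma adjusted p = 0.0077), from 10.03 ± 0.06 to 10.57 ± 0.14. ALDH18A1, the first enzyme of proline synthesis, rose by 0.29 (SE 0.06, limma adjusted p = 0.0187). The ALDH18A1 call was lost without mutant replicate 2 (limma adjusted p = 0.0718) or 3 (0.0573) or parental replicate 1 (0.061), 2 (0.0633) or 3 (0.054).

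ALDH6A1, methylmalonate semialdehyde dehydrogenase of valine breakdown, went the other way. It read 8.83, 8.95 and 8.84 in the parental and 7.99, 8.0 and 8.02 in the mutant arrays. The mutant arrays had an SD of 0.02 and lay below all parental ones, and the gene fell by 0.88 (SE 0.05, 1.83-fold lower, limma adjusted p = 0.000232). Its second, dimmer probe set fell by 0.35 (limma adjusted p = 0.0144).

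Of the 3 retinal dehydrogenases, which make retinoic acid, 1 was lower. ALDH1A3, the bright one of them in these cells, read 11.24, 11.25 and 11.24 in the parental and 10.75, 10.79 and 10.79 in the mutant arrays. The groups were almost free of spread, and the gene fell by 0.47 (SE 0.04, limma adjusted p = 0.00118). Its second, dimmer probe set did not show this, with a change of 0.06 (limma adjusted p = 0.62). ALDH1A1, a stem cell marker of many tissues, had means of 3.77 ± 0.12 and 3.98 ± 0.16 and was not called (limma adjusted p = 0.228). ALDH1A1 and ALDH1B1 lie on chromosome 9, where 30.9% of 732 genes were higher and 5.9% lower.

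ALDH3A2, the fatty aldehyde dehydrogenase that is deficient in Sjögren-Larsson syndrome, read 9.81, 9.92 and 9.94 against 10.36, 10.38 and 10.43 and rose by 0.50 (SE 0.06, limma adjusted p = 0.00215). It lies on chromosome 17, where 9.7% of 1067 genes were higher and 22.9% lower. ALDH3A1, its neighbour on that chromosome and an aldehyde dehydrogenase of cornea and stomach, had means of 7.11 ± 0.07 and 7.08 ± 0.06 and was not called (change -0.03, 95% confidence interval -0.17 to 0.12). The 2 folate ALDHs had 0 limma calls, 0 at an unadjusted p under 0.05 and 0 in an ordinary linear model.

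In the AKR1 family AKR1E2, a reductase of anhydrofructose, was the single called gene of 9. It read 7.20, 7.32 and 7.47 in the parental and 6.13, 6.32 and 6.19 in the mutant arrays. All mutant values were below all parental ones (7.33 ± 0.14 and 6.22 ± 0.10), and it fell by 1.11 (2.17-fold lower, SE 0.09, limma adjusted p = 0.000604), the largest decrease of the 107 genes. The AKR1C genes that follow it on chromosome 10 reduce steroids and prostaglandins and had 0 of 5 called by limma, 0 at an unadjusted p under 0.05 and 0 in an ordinary linear model. AKR1C1 had means of 6.65 ± 0.15 and 6.32 ± 0.47, with mutant replicate 1 at 5.79 and the other mutant arrays at 6.50 and 6.68. Its change of -0.33 had an interval of -0.90 to 0.24 (95%), and its second probe set differed by -0.24 (limma adjusted p = 0.173). AKR1C2 and AKR1C3 had differences of -0.12 and -0.06 with intervals of -0.49 to 0.25 and -0.39 to 0.27. AKR1B10, a reductase of retinal and lipid aldehydes raised in several carcinomas, had means of 4.51 ± 0.08 and 4.69 ± 0.30 and was not called.

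The UGT genes were dim apart from UGT8. UGT8, which makes the galactolipids of myelin, had means of 9.30 ± 0.09 and 9.41 ± 0.04 and was not called (change 0.12, 95% confidence interval -0.03 to 0.27). UGT3A2, a glycosyltransferase of the small UGT3 family, had the next brightest UGT probe set, with a difference of -0.04 that was not called. Of 6 UGT2 genes, which attach glucuronic acid to steroids and bile acids, 1 was called. UGT2A3 read 4.30, 4.44 and 4.5 against 4.15, 4.17 and 4.02 and fell by 0.30 (SE 0.07, limma adjusted p = 0.0368). At this dim level the call was lost without mutant replicate 1 (limma adjusted p = 0.0795), 2 (0.0755) or 3 (0.0994) or parental replicate 2 (0.115) or 3 (0.104), and the second UGT2A3 probe set differed by 0.01 (limma adjusted p = 0.982). UGT1A genes share one probe set with several symbols and were not named.

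The partner genes of these pathways were taken from 7 lists, chosen with earlier results of these data known, of which 109 of 133 genes were measured. Of the 109, 21 were higher and 21 lower (19.3% each, against 14.6% and 11.3% of all genes). A mean of at least 7 was reached by 77 of the 109, and of all genes this bright 20.9% were higher and 15.6% lower. By at least 1.5-fold, 6 were higher and 8 lower, and the median change was -0.014. These all-gene shares also stand beside the counts of each list below. The count of 21 higher became 13 without mutant replicate 2 and 13 without parental replicate 2. The count of 21 lower became 14 without parental replicate 2.

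The list of P450 electron donors, which also holds the P450-binding protein PGRMC2, stood at 0 higher and 5 lower of 10 measured by limma. An unadjusted p under 0.05 and an ordinary linear model gave the same counts. All 10 had a mean of at least 7, a level at which 20.9% of all genes were higher and 15.6% lower. The median change was -0.159, and the 5 lower genes encode cytochromes b5 or cytochrome b5 reductases. CYB5R2, an NADH-cytochrome b5 reductase, read 8.99, 9.17 and 9.32 in the parental and 7.15, 7.12 and 7.52 in the mutant arrays. No arrays overlapped, and the gene fell by 1.89 (SE 0.14, limma adjusted p = 0.000419). CYB5B, the cytochrome b5 of the outer mitochondrial membrane, read 13.53, 13.59 and 13.59 against 12.82, 12.82 and 12.80 and fell by 0.76 (SE 0.05, limma adjusted p = 0.000231). CYB5A, the cytochrome b5 of the endoplasmic reticulum that assists several P450s, read 10.01, 10.10 and 10.06 against 9.44, 9.38 and 9.51 and fell by 0.61 (SE 0.06, limma adjusted p = 0.000985). It lies on chromosome 18, where 13.3% of 264 genes were higher and 25.0% lower.

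The remaining genes of this list are named after their values were seen. The reductases CYB5R4 and CYB5R3 fell by 0.32 and 0.21 (limma adjusted p = 0.00855 and 0.0241), and the CYB5R3 call was lost without any one array (limma adjusted p of 0.0538 to 0.0957). POR, the NADPH reductase that serves all microsomal P450s, had means of 10.65 ± 0.06 and 10.78 ± 0.05 and was not called (change 0.13, limma adjusted p = 0.21). The ferredoxins FDX1 and FDX2, which serve mitochondrial P450s, had differences of -0.11 and 0.04 and were not called (limma adjusted p = 0.233 and 0.714). CYB5R1, a further cytochrome b5 reductase, and PGRMC2, a membrane protein that binds P450s, had differences of 0.05 and -0.01 and were not called.

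**Figure D4:**
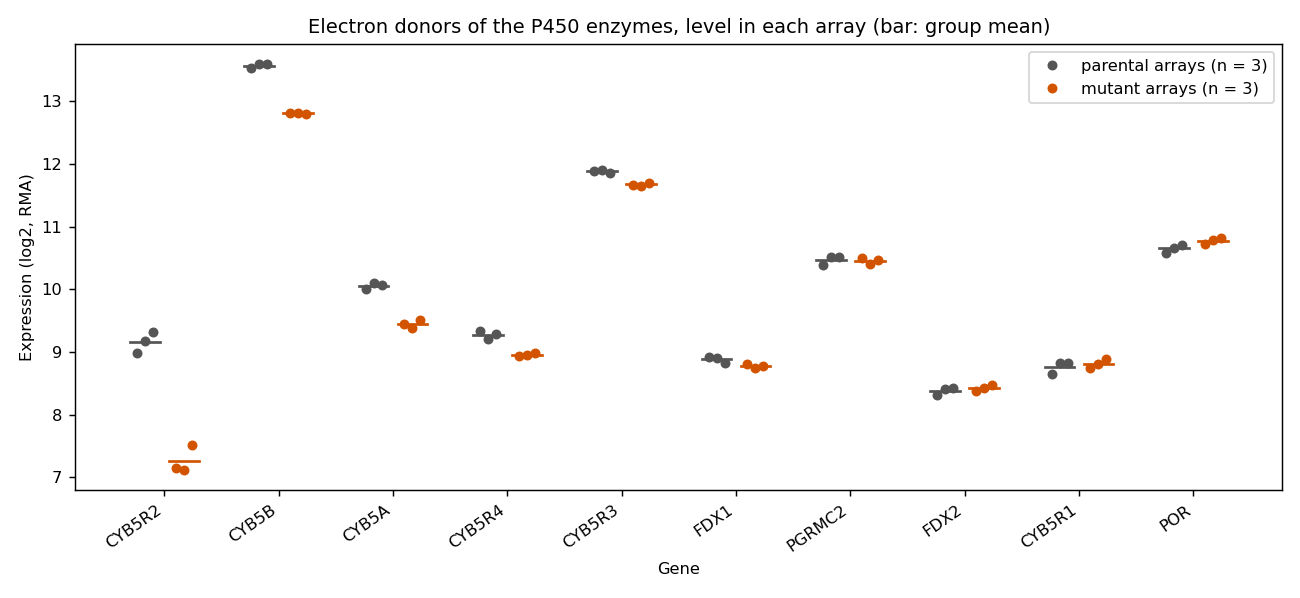
Expression of the 10 measured genes of the list of P450 electron donors as log2 RMA values (vertical axis) for each gene (horizontal axis). Each point is 1 array, colours separate the 3 parental and 3 mutant arrays, and short lines are group means. The mutant points of CYB5R2 lie at 7.12 to 7.52 below parental points at 8.99 to 9.32, while those of POR lie slightly above the parental points; levels of different genes are not comparable.

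Of 11 measured sensors of foreign compounds and bile acids, 3 were higher and 2 lower. ARNT2, a partner of bHLH-PAS factors such as the aryl hydrocarbon receptor, read 7.08, 7.14 and 7.03 against 7.74, 7.79 and 7.88 and rose by 0.72 (SE 0.06, limma adjusted p = 0.000719). The genes that follow are named after their values were seen. AHR, the aryl hydrocarbon receptor itself, fell by 0.45 (SE 0.07, limma adjusted p = 0.00709), and TIPARP, a target and repressor of AHR, fell by 0.49 (limma adjusted p = 0.00256). Their direction was opposite to that of CYP1A1 and CYP1B1, while CYP1A2 was not called at a change of -0.19. NR5A2, a nuclear receptor of bile acid and steroid genes, and RXRA, the shared partner of many nuclear receptors, rose by 0.55 and 0.39 (limma adjusted p = 0.00167 and 0.00287), and RXRA lies on chromosome 9.

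The NRF2 system and glutathione supply had 5 higher and 5 lower of 19 measured, with a median change of 0.055. SLC7A11, the cystine importer that feeds glutathione synthesis, read 10.71, 10.79 and 10.90 in the parental and 9.30, 9.31 and 9.24 in the mutant arrays. The groups were far apart, and the gene fell by 1.51 (SE 0.06, limma adjusted p = 7.13e-05). The other 9 called genes are named after their values were seen. GCLC and GCLM, the subunits of the enzyme that begins glutathione synthesis, rose by 0.35 and 0.37 (limma adjusted p = 0.00617 and 0.0128). The NRF2 targets HMOX1, which degrades haem, and ME1, a malic enzyme that supplies NADPH, rose by 0.28 and 0.22 (limma adjusted p = 0.0224 and 0.022), and BACH1, a repressor of such targets, rose by 0.32 (limma adjusted p = 0.0308). NFE2L2, which encodes NRF2, and MAFG, which encodes a partner of NRF2 and lies on chromosome 17, fell by 0.30 and 0.35 (limma adjusted p = 0.00967 and 0.0201). NQO1, a quinone reductase and NRF2 target, and GSR, which regenerates reduced glutathione, fell by 0.23 and 0.25 (limma adjusted p = 0.021 and 0.0144). Of the 10 called genes, SLC7A11, GCLC and NFE2L2 kept the call without each single array. The others lost it without single arrays, with the limma adjusted p in parentheses. GCLM lost it without mutant replicate 2 (0.052) or parental replicate 2 (0.051), and GSR without mutant replicate 2 (0.0511) or parental replicate 2 (0.0583) or 3 (0.0511). HMOX1 lost it without mutant replicate 2 (0.0831) or 3 (0.0723) or parental replicate 1 (0.0588) or 2 (0.0821), and ME1 without any one array (0.0529 to 0.0758). NQO1 lost it without mutant replicate 1 (0.0595) or 2 (0.0831) or parental replicate 1 (0.0505), 2 (0.0758) or 3 (0.0685). MAFG lost it without mutant replicate 1 (0.059) or 2 (0.0713) or parental replicate 1 (0.0538), 2 (0.0533) or 3 (0.0648). BACH1 lost it without mutant replicate 2 (0.0889) or 3 (0.0729) or parental replicate 1 (0.0938), 2 (0.0958) or 3 (0.0523).

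Of 16 measured retinoid pathway genes outside the enzyme families, 3 were higher and 2 lower. LRAT, which stores retinol as esters, read 7.81, 7.81 and 8.03 against 6.00, 6.18 and 6.48 and fell by 1.66 (SE 0.14, limma adjusted p = 0.000632). DHRS3, which reduces retinal back to retinol, read 10.03, 10.11 and 9.90 against 9.43, 9.25 and 9.35 and fell by 0.67 (SE 0.08, limma adjusted p = 0.00235). Neither gene had overlapping groups. The 3 higher genes are named after their values were seen. RDH10, which oxidises retinol to retinal, rose by 0.41, CRABP2, which carries retinoic acid to the nucleus, by 0.35, and PLAAT4, a retinoid-induced acyltransferase, by 0.45 (limma adjusted p = 0.00777, 0.00368 and 0.0307). The PLAAT4 call was lost without mutant replicate 2 (limma adjusted p = 0.0937) or 3 (0.0737) or parental replicate 2 (0.0995) or 3 (0.0948).

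The other conjugation and hydrolysis enzymes had 5 higher and 4 lower of 23 measured. SULT1C2, a sulfotransferase, fell by 1.04 (SE 0.12, limma adjusted p = 0.00224), from 5.71, 5.47 and 5.60 to 4.42, 4.43 and 4.79. The hydrolases BPHL and CES2, which activate ester prodrugs, rose by 0.85 and 0.65 (limma adjusted p = 0.000332 and 0.000757). TST, the mitochondrial sulfurtransferase that detoxifies cyanide, rose by 0.69 (limma adjusted p = 0.000577). Of 23 other dehydrogenases and reductases, 2 were higher and 1 lower. DHRS2, a dicarbonyl reductase, read 6.52, 6.77 and 6.93 against 7.43, 7.47 and 7.22 and rose by 0.63 (limma adjusted p = 0.016), a call lost without mutant replicate 1 (limma adjusted p = 0.0592) or 2 (0.0598) or parental replicate 2 (0.0507).

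Of 7 measured exporters of drugs and conjugates, 3 were higher and 2 lower. ABCB1, the multidrug pump P-glycoprotein, read 6.07, 6.37 and 6.48 against 5.23, 5.23 and 5.33 and fell by 1.05 (SE 0.11, limma adjusted p = 0.00169). ABCC3, an exporter of glucuronides and glutathione conjugates, read 7.91, 7.98 and 7.94 against 8.99, 8.92 and 8.94 and rose by 1.01 (SE 0.05, limma adjusted p = 0.000107). Both were separated without overlap, in opposite directions, and ABCC3 lies on chromosome 17.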

How the data were processed

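Expression was measured on 6 arrays, 3 of parental and 3 of mutant HCT116 cells, grouped by their genotype labels. The authors deposited log2 values for each probe set on each array. The submitters' processing notes name RMA and Partek as the tools; the version of each tool was not given in the sources used here, nor was a genome build. Since RMA equalises the distributions of the arrays, a difference in total RNA per cell is not kept.

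Of 33297 probe sets, 19460 have 1 gene symbol, 1754 several and 12083 none; genes were named from the first only. All 107 enzyme gene IDs were found in the RefSeq table of GRCh38.p14, used for chromosome and order. All rows entered the fit, 558 identical to an earlier row. Mutant minus parental was tested with limma 3.58.1 (two-sided, by lmFit and eBayes in R 4.3.3, with 4 residual and 2.16 prior degrees of freedom), with Benjamini-Hochberg adjustment and no covariate; the code was tested on simulated data. Other steps used scipy 1.17.1, pandas 2.3.3 and numpy 2.4.6 in Python 3.11.15, with figures drawn in matplotlib 3.10.9. Confidence intervals (95%) are unadjusted. Depth does not apply to arrays, and their number limits the precision.

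Named are all called enzyme genes (all 6 values at 1.5-fold or more), the 2 brightest per family, a list of 20 well-known enzymes and, per partner list, up to 4 called genes of at least 1.5-fold without overlap. Members and lists were chosen with earlier results of these data known. Alternatives covered normalization, filters on dim probe sets, the test, the choice of probe sets, 4 chromosomes left out, the replicate block and each array left out.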

Additional observations from a re-analysis of the deposited data

How the results depend on the processing

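Over 19 alternatives the count of enzyme genes called higher (19) ranged from 6 with a minimum fold of 1.2 in the test to 29 with only single-symbol probe sets adjusted for, and the count called lower (6) from 4 to 7. Partner genes called higher (21) numbered 6 with a minimum fold of 1.2, and those called lower (21) numbered 9. Leaving out 1 array gave 13 to 15 enzyme genes higher, 5 to 6 lower, and 13 to 18 partner genes higher and 14 to 19 lower. These fits have 1 array fewer and a weaker test by construction. With the replicate block the counts were 14 and 5 enzyme genes and 15 and 17 partner genes. Parental and mutant arrays of the same number correlated at 0.043, -0.013 and 0.003 in their deviations from the group means. Arrays of different number correlated at -0.064 to 0.06. These values show no pairing by number. They cannot exclude it, since the deviations within a group sum to 0 and RMA equalises the arrays. Of the 25 called enzyme genes, 10 (AKR1E2, ALDH1A3, ALDH2, ALDH5A1, ALDH6A1, CYP20A1, CYP24A1, CYP2U1, CYP4V2 and GSTA2) stayed called in all alternatives that tested them, 15 lost the call at least once, and 0 changed direction. Among the uncalled enzyme genes that are well known or brightest in their family, ALDH1B1, CYP26A1, GSTM1 and GSTP1 were called in some. The other uncalled enzyme genes were not followed singly, and some of them gained a call. With only single-symbol probe sets adjusted for, 19 of the 29 called higher were also called in the main fit. Of 32 called partner genes named, 14 stayed called throughout and 0 changed direction. Dim signal limits 70 of the 107 genes, and 3 arrays per group limit all.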

Other observations

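Probe sets that carry several gene symbols of these enzyme families, which the report does not name, numbered 20. They include a probe set shared by UGT1A genes. Of the 20, limma called 0 after Benjamini-Hochberg adjustment, 2 had an unadjusted p under 0.05, and an ordinary linear model called 0.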
